A study of Mus musculus with 8 samples.

Results

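The CC chemokines described here are 7 secreted attractants of lymphocytes and eosinophils, Ccl5, Ccl6, Ccl9, Ccl11, Ccl17, Ccl22 and Ccl24. They were taken by name, as a group set by what the proteins attract and not by a measured value, though earlier results of these data were known. They make up 7 of the 18193 genes with a probe set of their own on the array. All 7 passed the filter on low signals, among 13041 genes tested.

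The arrays measured RNA of cells that had been sorted with a Cd11b-PE antibody from collagenase-digested mammary glands of female FVB mice, aged 6 weeks when treatment began. MMTV-iFGFR1 mice carry a fibroblast growth factor receptor that the drug called dimerizer switches on. Controls were littermates without the transgene, and they received dimerizer as well. The MMTV promoter is active mainly in mammary epithelium. Each genotype was sampled after 48 hours and after 4 weeks of treatment, which gave 4 groups of 2 arrays. An array held the RNA of a pool of 3 mice, amplified in a two-cycle protocol, so the p-values measure the spread between such pools, and the 8 arrays limit the precision. For pool 2 of the transgenic mice at 4 weeks the free-text description names non-transgenic mice, although the title, the source and the genotype field give the transgene. It was used as transgenic here, and the 4 weeks genotype differences of Ccl17, Ccl22, Ccl5 and Ccl24 are also given without it. Other values that depend on it are given with it, apart from ranges over left-out pools.

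Chemokines form gradients on matrix and endothelium and are read by G-protein-coupled receptors on migrating leukocytes. CCL17 and CCL22 share the receptor CCR4 of type 2 helper and regulatory T cells. CCL11 and CCL24, the eotaxins, act on CCR3 of eosinophils, while CCL5 binds several receptors and also attracts T cells and monocytes. CCL6 and CCL9, found in rodents, act through CCR1 and are abundant products of macrophages and other myeloid cells. In the mammary gland, eosinophils drawn by eotaxin and macrophages both take part in the growth of the ducts.

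The pools were checked against markers of the labelled cell type. Signals of the macrophage genes Csf1r, which encodes the receptor of colony stimulating factor 1, and Adgre1, which encodes F4/80, lay between 68311 and 93065 and between 9842 and 14627. Itgam, which encodes the sorted antigen Cd11b, gave 46.8 to 545, against array medians of 96.4 to 127. Fibroblast and epithelial transcripts were present as well, with Col3a1, a collagen, at 13130 to 32565 and Krt8, a keratin, at 625 to 3965. The ratio of 3′ to 5′ actin probe sets, a measure of how far the RNA was shortened, was 37.0 in pool 2 of the control at 4 weeks and 6.84 to 13.9 in the other pools. In the limma fit, 0 of the 13041 genes reached the threshold (adjusted p of 0.05) in the genotype comparison at 48 hours and 0 at 4 weeks, where 531 and 662 genes lay below an unadjusted p of 0.05. No detection calls were used, so a low signal cannot be told from an absent transcript.

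Genotype differences of the 7 chemokines did not pass the test at either time (0% of all genes passed at either). Ccl17 stood higher in transgenic pools at both times, with the wider gap at 4 weeks, while Ccl5 and Ccl22 stood lower in transgenic pools at 48 hours and overlapped between genotypes at 4 weeks. Ccl6 stood slightly higher in transgenic pools at 48 hours. Ccl9, Ccl11 and Ccl24 overlapped between genotypes at both times. At 48 hours the groups did not overlap for 4 of the 7 chemokines, against 35% of all genes, with 2 higher against 18.9% and 2 lower against 16.1%. At 4 weeks they did not overlap for 1 of the 7, against 31.9% of all genes, and that 1 was higher, against 14.7% higher and 17.2% lower.

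The sequences that bear on the description are the stretches just upstream of Ccl17 and Ccl22, since these neighbours on chromosome 8 share a receptor and their genotype differences had opposite signs at 48 hours. At 4 weeks both were positive with all pools, where the sign of Ccl22 rests on 1 control pool. Only the fractalkine gene Cx3cl1 lies between them among coding genes. The RefSeq promoter table (build GRCm38.p6) held an entry for 4 of the 7 genes, Ccl6, Ccl9, Ccl17 and Ccl22. The 250 bases before the annotated start, read 5′ to 3′ on the plus strand, follow for Ccl17 (chr8:94810203-94810452) and Ccl22 (chr8:94745434-94745683), where capitals mark matches to TTC and GAA with any 4 bases between, the spacing preferred by STAT6, or with any 3 bases between, the spacing of other STAT proteins.
Ccl17: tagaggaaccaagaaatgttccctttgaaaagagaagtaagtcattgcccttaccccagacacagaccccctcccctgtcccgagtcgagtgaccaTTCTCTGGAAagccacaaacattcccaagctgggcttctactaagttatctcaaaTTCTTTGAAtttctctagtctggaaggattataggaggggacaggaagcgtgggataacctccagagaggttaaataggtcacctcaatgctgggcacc
Ccl22: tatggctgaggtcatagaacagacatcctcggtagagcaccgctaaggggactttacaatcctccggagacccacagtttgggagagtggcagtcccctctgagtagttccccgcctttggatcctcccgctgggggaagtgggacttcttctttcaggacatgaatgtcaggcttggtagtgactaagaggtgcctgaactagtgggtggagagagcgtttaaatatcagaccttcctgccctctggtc

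In Ccl17 the match with 4 bases between begins at -154 and that with 3 at -99 from the start of transcription. In the window from 250 bases before to 50 after the start, searched on both strands, 6.95% of 32851 promoters held the first set of letters and 8.3% the second. Ccl22 held neither. The core letters of an interferon response element (GAAA, any 2 bases, GAAA), present in 3.44% of promoters, were in none of the 4. An NF-kB motif, in 8.46% of promoters, began at -35 in Ccl9, and TATAAA, searched only on the strand of each gene and in 8.32% of promoters, began at -92 there. A match is a description of these letters and names no bound factor.

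Ccl17, the attractant of CCR4-bearing T cells also called TARC, is made mainly by dendritic cells and some macrophages. At 48 hours its MAS5 signal, a linear intensity scaled by the authors to the same array mean, was 337 and 250.2 in the control pools and 471 and 452 in the transgenic pools. At 4 weeks it was 66.7 and 497 in the control pools and 714 and 1052 in the transgenic pools. Every transgenic pool was above both controls of its time, a pattern shared by 377 genes, or 2.89% of those tested.

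The 48 hours means of Ccl17 were 293 ± 61.1 in controls and 462 ± 14.0 in transgenic pools (SD, n = 2 each). On the log2(signal + 30.8) scale used for all differences, the genotype difference was 0.62 (SE 0.62, 95% interval -0.77 to 2.00), with a limma adjusted p of 0.976. At 4 weeks the means were 282 ± 304 in controls and 883 ± 238 in transgenic pools, and the log2 difference of 1.98 (SE 0.62, interval 0.60 to 3.37) was the 13th highest of 13041 genes. Its limma adjusted p was 0.965 and its unadjusted p 0.00955. This made 1 of 7 chemokines below an unadjusted p of 0.05 at 4 weeks, against 5.08% of all genes, while 0 of 7 were below it at 48 hours, against 4.07%.

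Over both times Ccl17 was higher in transgenic pools by 1.30 (SE 0.44, interval 0.32 to 2.28; limma adjusted p = 0.959). It was the 1 chemokine of 7 below an unadjusted p of 0.05 there, against 4.46% of all genes. The difference between the genotype effects at 4 weeks and 48 hours was 1.37 (SE 0.88) and did not pass the test (limma adjusted p = 0.988). In that comparison 0 of 7 chemokines were below an unadjusted p of 0.05, against 4.74% of all genes. The order of the group means was transgenic at 4 weeks, transgenic at 48 hours, control at 48 hours, control at 4 weeks. Transgenic pools of the 2 times did not overlap, nor did transgenic and control pools at 48 hours, while the pools of the 2 control groups overlapped. In transgenic pools the signal at 4 weeks exceeded that at 48 hours by 0.87 on the log2 scale without overlap, against 28.5% of all genes without overlap and 14.1% higher without overlap, and this did not pass the test (limma adjusted p = 1.00).

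The 4 weeks value of Ccl17 rests on which control pool is used. The control pools at 4 weeks lay 7.45-fold apart, a gap as wide as that of 0.920% of all genes, and pool 1 was the lower. Without control pool 1 the log2 difference was 0.77 (SE 0.37, limma adjusted p = 0.655), and without control pool 2, which has the actin ratio of 37.0, it was 3.20 (SE 0.39, limma adjusted p = 0.0647). Without transgenic pool 2, whose labels disagree, it was 1.72 (SE 0.80). With the actin ratio added to the model the difference was 1.09 at 48 hours and 3.05 at 4 weeks. The direction was the same in these fits and the size differed by more than 1.5 times.

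**Figure D1:**
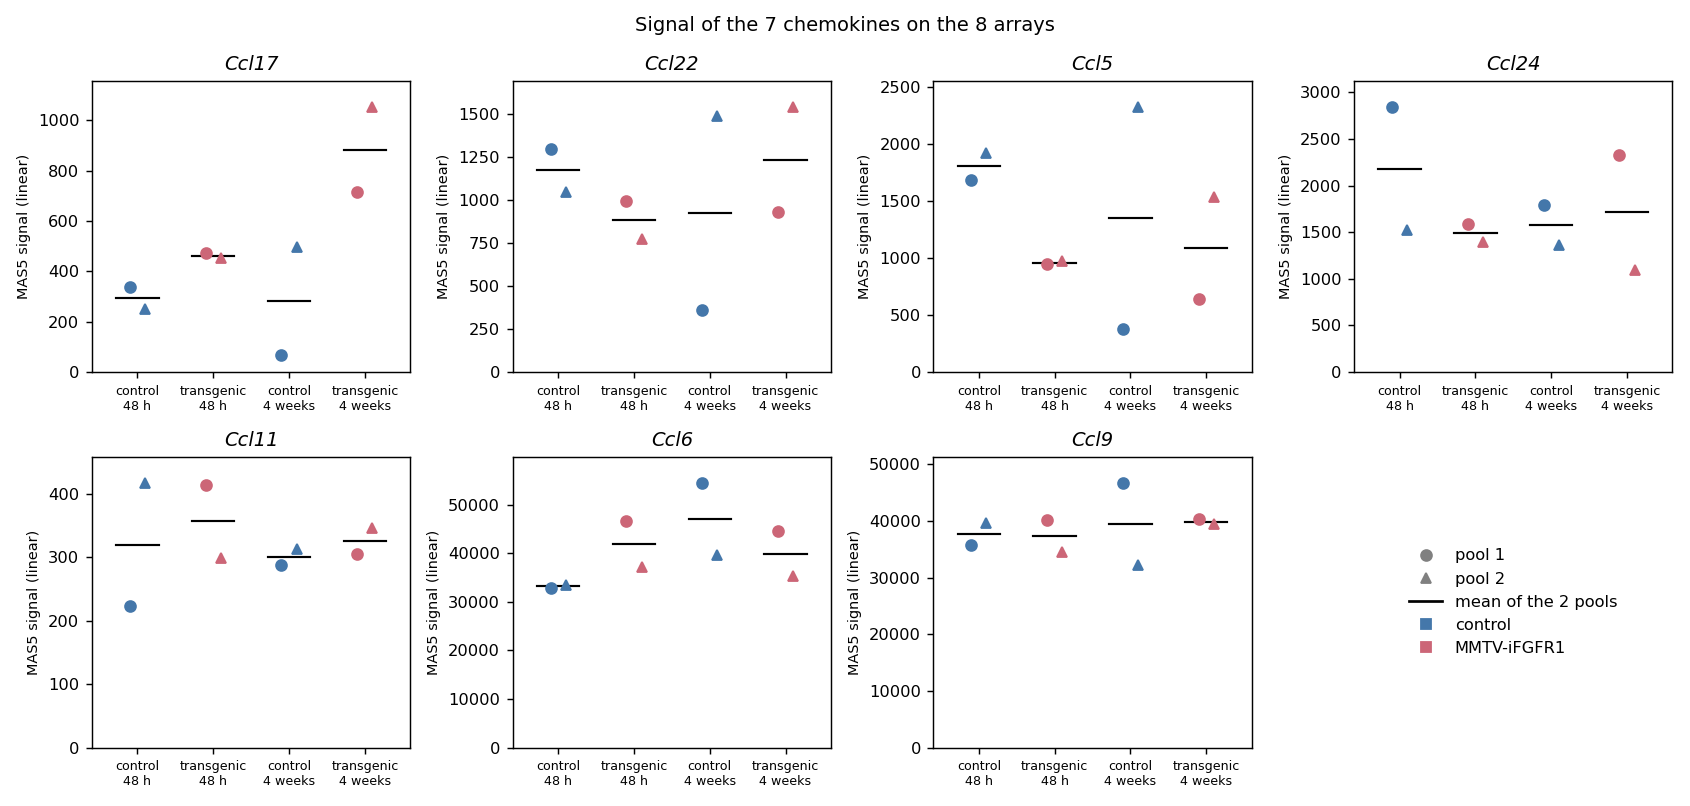
MAS5 signal (linear axis from 0) of each chemokine on the 8 arrays, by group on the horizontal axis, with circles for pool 1, triangles for pool 2 and lines for the mean of the 2 pools. Ccl17 is higher in both transgenic pools than in both control pools at each time, and the control pools at 4 weeks lie far apart for Ccl17, Ccl22 and Ccl5.

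Ccl22, also called MDC, is the other CCR4 ligand and is made by macrophages and dendritic cells. Its signal at 48 hours was 1298 and 1047 in control pools and 993 and 776.5 in transgenic pools. At 4 weeks it was 359.5 and 1488 in control pools and 928 and 1539 in transgenic pools. The groups did not overlap at 48 hours, with transgenic pools lower, and overlapped at 4 weeks.

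The means of Ccl22 at 48 hours were 1172 ± 177 in controls and 885 ± 153 in transgenic pools (SD, n = 2 each), a log2 difference of -0.40 (SE 0.53, interval -1.57 to 0.78; limma adjusted p = 0.979). At 4 weeks they were 924 ± 798 and 1234 ± 432, a difference of 0.67 (SE 0.53, interval -0.50 to 1.85; limma adjusted p = 0.986). Control pool 1 was again the low one, 4.14-fold below control pool 2, as wide a gap as in 2.89% of genes. Without control pool 1 the 4 weeks difference was -0.31, and without control pool 2 it was 1.65 (limma adjusted p = 0.298). Without transgenic pool 2 it was 0.32. Adding the actin ratio gave -0.032 at 48 hours and 1.48 at 4 weeks. The sign at 4 weeks therefore rests on control pool 1.

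Set side by side, the CCR4 ligands differed in direction at 48 hours, with Ccl17 higher and Ccl22 lower in transgenic pools, and neither difference passed the test. Over the 8 arrays the Pearson correlation of their log2 values was 0.79, and it was 0.28 without control pool 1 at 4 weeks. The points share 4 groups of 2 pools and their RNA quality, so the correlation is a description.

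**Figure D2:**
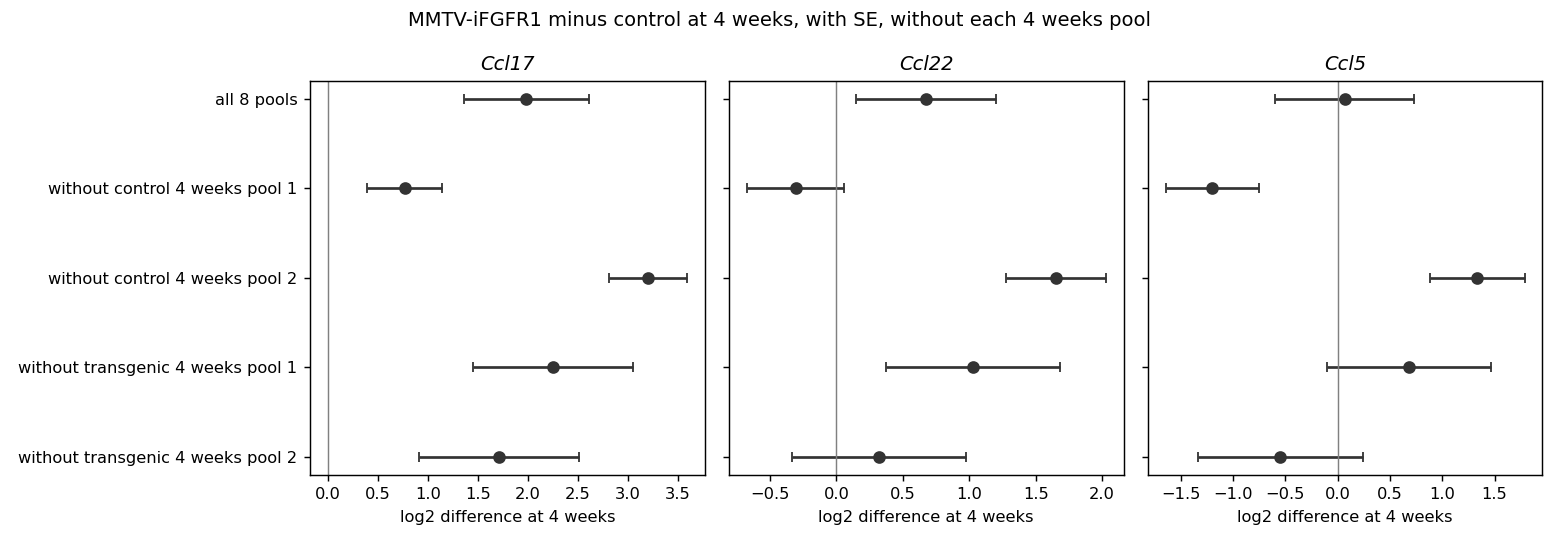
Log2 difference of MMTV-iFGFR1 minus control at 4 weeks for Ccl17, Ccl22 and Ccl5 (horizontal axis, points with SE from limma), with all 8 pools and without each of the 4 pools of that time. Ccl17 stays above 0 and ranges from 0.77 to 3.20, while Ccl22 and Ccl5 fall on both sides of 0 according to the pool left out.

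Ccl5, or RANTES, attracts T cells, monocytes and eosinophils and is made by T cells, NK cells and macrophages. At 48 hours its signal was 1684 and 1923 in control pools and 948 and 970.3 in transgenic pools. At 4 weeks it was 375 and 2319 in control pools and 637 and 1535 in transgenic pools. Transgenic pools were close to each other and below both controls at 48 hours, and at 4 weeks the control pools enclosed the transgenic ones.

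At 48 hours the means of Ccl5 were 1803 ± 169 and 959 ± 16.1 (SD, n = 2 each), a log2 difference of -0.89 (SE 0.67, interval -2.37 to 0.59; limma adjusted p = 0.976). A fit of the 4 arrays of that time alone gave an unadjusted p of 0.00486 and a limma adjusted p of 0.906. Adding the actin ratio to the model as a covariate gave differences of -0.37 at 48 hours and 1.22 at 4 weeks. At 4 weeks the means were 1347 ± 1375 and 1086 ± 635, a difference of 0.067 (SE 0.67, interval -1.41 to 1.55; limma adjusted p = 0.996).

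The 4 weeks value of Ccl5 also depends on single pools. Its control pools lay 6.19-fold apart, as wide a gap as in 0.713% of genes. The difference was -1.20 without control pool 1 (limma adjusted p = 0.633), 1.33 without control pool 2 (limma adjusted p = 0.640) and -0.55 without transgenic pool 2. No direction can be given for Ccl5 at 4 weeks from these pools.

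Among the eotaxins, Ccl24 (eotaxin-2), a product of alternatively activated macrophages, gave 2838 and 1527 in controls and 1591 and 1392 in transgenic pools at 48 hours. At 4 weeks it gave 1789 and 1368 in controls and 2333 and 1098 in transgenic pools. The groups overlapped at both times.

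For Ccl24 the means at 48 hours were 2182 ± 927 and 1491 ± 141 (SD, n = 2 each), a log2 difference of -0.48 (SE 0.39, interval -1.34 to 0.38). At 4 weeks they were 1578 ± 298 and 1716 ± 873, a difference of 0.034 (interval -0.83 to 0.89). The limma adjusted p-values were 0.976 and 0.996. Leaving out 1 pool at a time moved the 48 hours value between -0.92 and -0.036 and the 4 weeks value between -0.50 and 0.57, with 0.57 without transgenic pool 2 and -0.16 without control pool 2.

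Ccl11 (eotaxin-1), in many tissues a product of fibroblasts and other stromal cells, had signals of 222.5 and 416 in controls and 414 and 299 in transgenic pools at 48 hours. At 4 weeks they were 287.5 and 313 in controls and 305 and 345 in transgenic pools. All 4 groups overlapped with their neighbours in the order of means.

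The means of Ccl11 were 319 ± 137 and 356 ± 80.8 at 48 hours, and 300.1 ± 17.7 and 325 ± 28.4 at 4 weeks (SD, n = 2 each). The genotype differences were 0.19 (interval -0.61 to 0.99) and 0.10 (interval -0.69 to 0.90), and the groups lay within the spread of their pools. Without a control or transgenic pool the 48 hours value ran from -0.22 to 0.60. Summed signal of 12 fibroblast markers was 45787 and 108157 in control pools and 88284 and 91384 in transgenic pools at 48 hours, and the pool with the lowest sum was also the lowest of the 8 for Ccl11. The part of stromal cells in the Ccl11 signal was not tested. In sorted bulk samples fewer cells of a type and less RNA per cell cannot be told apart.

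The CCR1 ligands gave signals far above the array medians in all pools. Ccl6 read 32947 and 33544 in controls and 46663 and 37263 in transgenic pools at 48 hours, and 54401 and 39693 in controls and 44489.5 and 35320 in transgenic pools at 4 weeks. Control pools at 48 hours were the lowest of all, with no overlap with the transgenic pools of that time or with the controls of 4 weeks.

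Ccl6 means were 33245 ± 422 and 41963 ± 6647 at 48 hours (SD, n = 2 each), a log2 difference of 0.33 (SE 0.21, interval -0.13 to 0.78). At 4 weeks they were 47047 ± 10400.1 and 39905 ± 6484, a difference of -0.23 (SE 0.21, interval -0.69 to 0.23). The limma adjusted p-values were 0.976 and 0.986, and the difference between the times of -0.56 (SE 0.29) did not pass the test (limma adjusted p = 0.988). The probe set chosen has a design suffix that marks probes shared by more than 1 transcript. A second probe set of Ccl6 gave 27534 and 20309 in controls and 36609 and 23151 in transgenic pools at 48 hours, and 30638 and 18013 in controls and 26471 and 26539 in transgenic pools at 4 weeks, and the groups overlapped at both times. On it the genotype difference was 0.30 (SE 0.29) at 48 hours and 0.17 (SE 0.29) at 4 weeks, so the sign at 4 weeks differed between the probe sets, and the difference between the times was -0.13 (SE 0.41).

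Ccl9 read 35758 and 39687 in controls and 40120.4 and 34473.5 in transgenic pools at 48 hours, and 46664 and 32321 in controls and 40362 and 39420.3 in transgenic pools at 4 weeks. The genotype difference was -0.019 (SE 0.20, interval -0.46 to 0.42) at 48 hours and 0.039 (SE 0.20, interval -0.40 to 0.48) at 4 weeks, with limma adjusted p-values of 0.994 and 0.995. Its intervals, with those of Ccl6, were the narrowest of the 7 chemokines. A dimmer second probe set of Ccl9 gave 1358 and 834 in controls and 2126 and 1207 in transgenic pools at 48 hours, and 2240 and 673 in controls and 2099 and 1379 in transgenic pools at 4 weeks. On it the genotype difference was 0.58 (SE 0.50) at 48 hours and 0.45 (SE 0.50) at 4 weeks. The sign at 48 hours therefore differed between the Ccl9 probe sets. On both probe sets the groups overlapped at both times.

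Ccl5, Ccl9 and Ccl6 lie next to each other in that order on chromosome 11, with 0 coding genes between neighbours, and did not share a pattern. Over the 8 arrays the correlation of log2 values was 0.61 for Ccl6 with Ccl9 and -0.83 for Ccl5 with Ccl6. Without control pool 1 at 4 weeks they were 0.24 and -0.65. Ccl5 and Ccl22, on different chromosomes, correlated at 0.87, and at 0.72 without that pool.

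**Figure D3:**
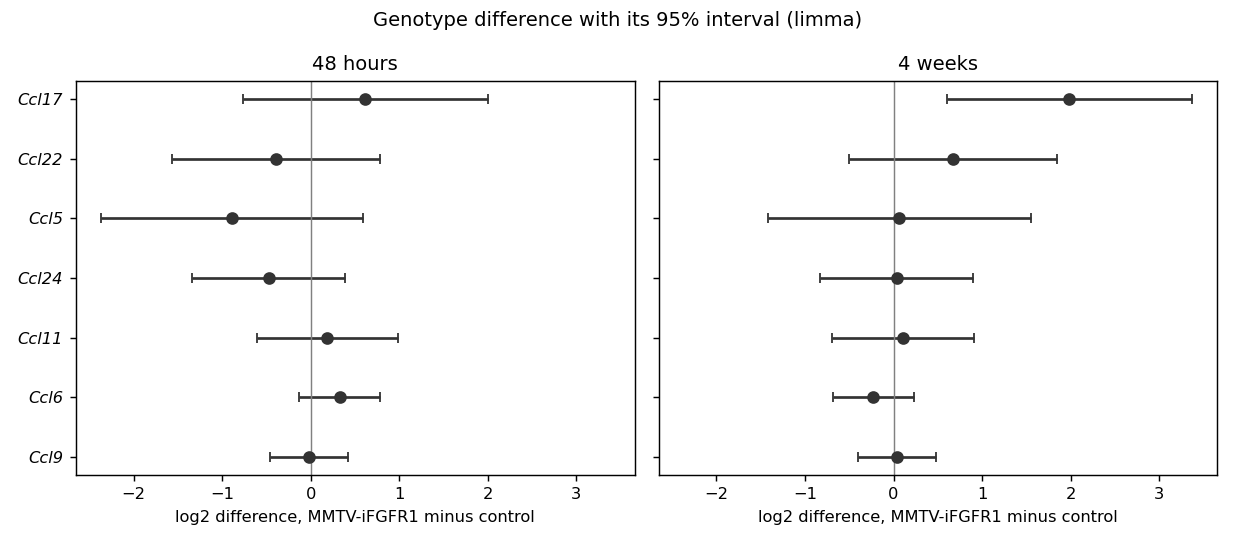
Log2 difference of MMTV-iFGFR1 minus control (horizontal axis) for the 7 chemokines at 48 hours and at 4 weeks, with limma's 95% interval. Ccl17 at 4 weeks, from 0.60 to 3.37, is the only interval that leaves out 0, and Ccl6 and Ccl9 have the narrowest intervals.

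Between the times, Ccl6 was higher in control pools at 4 weeks than at 48 hours by 0.48 (SE 0.21, interval 0.03 to 0.94) with no overlap. It was the only 1 of the 7 without overlap in that comparison, against 31.8% of all genes and 18% higher without overlap, and did not pass the test (limma adjusted p = 0.788), which 0.00767% of genes passed, the coagulation gene F5 alone. Without control pool 1 at 4 weeks the Ccl6 value was 0.26, and without control pool 2 it was 0.71. On the second Ccl6 probe set the same difference was -0.0094 (SE 0.29) and the groups overlapped. The other time differences in control pools ran from -0.91 for Ccl5 to 0.044 for Ccl9. For Ccl5, Ccl17 and Ccl22 they were -0.91, -0.50 and -0.64 with all pools and 0.36, 0.72 and 0.34 without control pool 1 at 4 weeks. Below an unadjusted p of 0.05 were 1 of 7 chemokines, Ccl6, in control pools, against 6.16% of all genes, and 0 of 7 in transgenic pools, against 2.19%. In transgenic pools Ccl17 was the only chemokine without overlap between the times.

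As a group, 3 of the 7 chemokines had a positive genotype difference at 48 hours, with a median of -0.019 beside 0.038 over all genes, of which 54% were positive. The 48 hours median is the value of Ccl9, which was 0.079 with quantile normalization and 0.58 on its second probe set. At 4 weeks 6 of 7 were positive, with a median of 0.067 beside -0.021 over all genes, of which 48% were positive. That median is the value of Ccl5, and Ccl5 and Ccl22 were negative without control pool 1 (-1.20 and -0.31), as Ccl9 and Ccl24 were with the actin ratio as a covariate (-0.22 and -0.21). Over both times 5 of 7 were positive, against 50.8% of all genes, and the genotype difference was larger at 4 weeks than at 48 hours for 5 of 7, against 45.7%. From 48 hours to 4 weeks 2 of 7 had a positive difference in control pools, against 55%, and 5 of 7 in transgenic pools, against 48.4%.

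Chemokine receptors were measured in the same sorted cells. They include Ccr2 and Ccr8, which are not among the receptors named above for these ligands. Of the receptor genes reported here, 4 were tested, and Ccr4 stayed below the filter with signals of 6 to 139. Ccr1, the receptor of CCL5, CCL6 and CCL9 on monocytes and macrophages, gave 2591 and 2948 in controls and 2549 and 2090 in transgenic pools at 48 hours, and 1880 and 3831 in controls and 3420 and 3585 in transgenic pools at 4 weeks. It was lower without overlap in transgenic pools at 48 hours, by 0.26 on the log2 scale (SE 0.31), and overlapped at 4 weeks.

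Ccr2, which brings monocytes into tissue, gave 1878 and 2260 in controls and 3388 and 1753 in transgenic pools at 48 hours, and 2463 and 1277 in controls and 3229 and 2513 in transgenic pools at 4 weeks. Both transgenic pools were above both controls at 4 weeks, with a difference of 0.67 (SE 0.37; limma adjusted p = 0.981). Ccr8, a receptor of type 2 and regulatory T cells, read 149 and 159 in controls and 60.9 and 7.3 in transgenic pools at 48 hours. Its difference of -1.65 (SE 0.65) had a limma adjusted p of 0.976. The control signals were not far above the array medians, and the lowest transgenic signal, 7.3, was far below them.

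Ccr3, the eotaxin receptor of eosinophils, gave 225 and 160 in controls and 145 and 91.5 in transgenic pools at 48 hours. At 4 weeks it gave 7.8 and 19.3 in controls and 99.5 and 19.6 in transgenic pools. The control pools at 4 weeks were below those at 48 hours by 2.33 on the log2 scale (SE 0.64), which did not pass the test (limma adjusted p = 0.586). Its ligands Ccl11 and Ccl24 differed by -0.026 and -0.41 between the same pools.

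**Figure D4:**
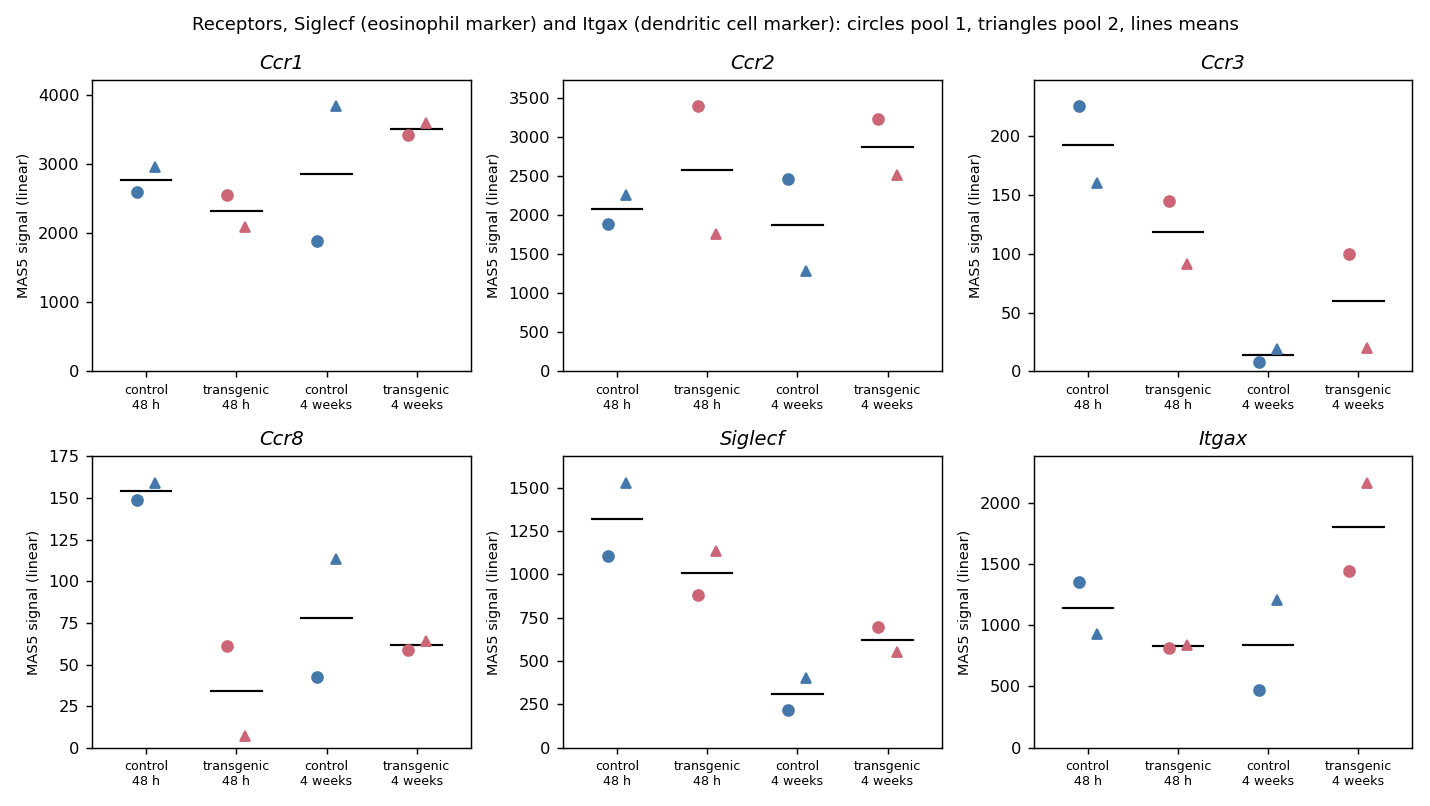
MAS5 signal (linear axis from 0) of the receptors Ccr1, Ccr2, Ccr3 and Ccr8 and of the markers Siglecf and Itgax on the 8 arrays, with circles for pool 1, triangles for pool 2 and lines for group means. Ccr3 and Siglecf are lower in the control pools at 4 weeks than at 48 hours, and Itgax is higher in both transgenic pools at 4 weeks than in the controls of that time.

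Markers of eosinophils were set beside Ccr3 in the control pools, and none passed the test. Siglecf, a lectin of eosinophils and some macrophages, gave 1108 and 1530 in control pools at 48 hours and 215 and 403 at 4 weeks, a difference of -2.03 (SE 0.34; limma adjusted p = 0.226). All 4 of the eosinophil list that were tested, of 10, were negative in that comparison, with a median of -1.91 beside 0.048 over all genes. They were Siglecf, Alox15, Adgre4 and Ccr3 itself, which is also in the median and in the sum that follows. The summed signal of the list was 6074 and 8117 in control pools at 48 hours and 2722 and 4677 at 4 weeks. Adgre4 alone, at 4091 and 5996.5 and at 2244 and 3832 in those pools, made up most of that sum. The granule genes that define eosinophils, Prg2, Epx and Prg3, were below the filter, with signals of 9.2 to 142.5. Epx gave 91.9 and 18.2 in control pools at 48 hours and 28 and 142.5 at 4 weeks, which overlapped. Il5ra of the same list, also below the filter, gave 77.7 and 93.5 at 48 hours and 110.7 and 6.7 at 4 weeks in control pools, and overlapped. No marker was at 0, and the part of eosinophils in the Ccr3 signal was not tested.

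The atypical receptors bind chemokines without signalling for migration, and the protease Dpp4 clips the ends of CCL5, CCL11 and CCL22. All 4 of these genes were tested and 0 passed at either time. Ackr1 ran from 271.5 to 493 over the pools, Ackr2 from 82 to 285 and Ackr4 from 280.3 to 379.5. Dpp4 gave 634 and 459 in controls and 457 and 258 in transgenic pools at 48 hours and 460.4 and 482 in controls and 490 and 567 in transgenic pools at 4 weeks. Its differences were -0.60 and 0.15 (SE 0.33 each).

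Interleukin 4 and 13 raise Ccl17, Ccl22 and Ccl24 through STAT6. A wider list of 18 genes of type 2 cytokine signalling also holds Il5, Il33, Tslp and receptor genes. Of these 18 genes 13 were tested, with 4 positive and 9 negative at 48 hours and 8 positive and 5 negative at 4 weeks, and 0 passed. The medians were -0.098 and 0.33, beside 0.038 and -0.021 over all genes. Stat6 itself stayed between 1491 and 1972 over the 8 pools. Il4 gave 307 and 203 in controls and 106 and 84.8 in transgenic pools at 48 hours, the opposite side to Ccl17. Its difference was -1.16 (SE 0.63; limma adjusted p = 0.976), with transgenic signals close to the array medians, and the groups overlapped at 4 weeks. Il13 was below the filter, with signals of 7.9 to 18.9.

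Other STAT6 targets of macrophages did not share a direction with Ccl17 at 4 weeks, where 5 of 11 tested genes were positive and 6 negative, with a median of -0.024. Mgl2, a lectin of alternatively activated macrophages and dendritic cells, was higher without overlap, at 1660 and 2507 in transgenic pools against 1450 and 585.5 in controls, a difference of 1.12 (SE 0.44; limma adjusted p = 0.965). Chil3, a chitinase-like protein, was lower without overlap, at 617 and 661 against 1447 and 2163, a difference of -1.43 (SE 0.37; limma adjusted p = 0.866).

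Ccl5 is induced by interferon regulatory factors and NF-kB. Of 14 such genes 11 were tested, and at 48 hours, where Ccl5 was lower in transgenic pools, 1 was positive and 10 negative, with a median of -0.23 beside 0.038 over all genes, and 0 passed. Ifnb1, interferon beta, gave 210.5 and 225 in controls and 89.7 and 86.4 in transgenic pools, a difference of -1.07 (SE 0.41; limma adjusted p = 0.976). Both transgenic signals were below their array medians of 96.4 and 105.8. Tnf gave 3444 and 2189 in controls and 1402 and 1780 in transgenic pools. At 4 weeks 3 were positive and 8 negative.

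Markers of other cells that the gate could hold were set beside Ccl17, Ccl5 and Ccl22. Summed signal of 11 dendritic cell markers at 4 weeks was 4910 and 6037 in controls and 7170 and 9543 in transgenic pools, the same side as Ccl17. Itgax, which encodes Cd11c, gave 474 and 1205 in controls and 1443 and 2164 in transgenic pools, a difference of 1.19 (SE 0.41; limma adjusted p = 0.965). Itgax and Cd209a, the latter at 1286 and 1297 in controls and 2195 and 2916 in transgenic pools, made up much of the summed signal. The dendritic cell regulator Zbtb46 gave 251 and 281 in controls and 110.1 and 333 in transgenic pools and overlapped. Of 11 tested dendritic markers 7 were positive and 4 negative at 4 weeks. At 48 hours, where Ccl17 was also higher in transgenic pools, 3 were positive and 8 negative. Their median there was -0.43, beside 0.038 over all genes. The 48 hours sums overlapped, at 6898 and 5615 in controls and 6030 and 4494 in transgenic pools. The part of dendritic cells in the Ccl17 difference was not tested.

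At 48 hours, where Ccl5 and Ccl22 were lower in transgenic pools, the summed signal of 11 luminal epithelial markers was 5030 and 5328 in controls and 12996 and 13307 in transgenic pools. Krt8, at 2747 and 3692 in transgenic pools, and Wfdc18, at 5881 and 5164, made up much of it. Of the 11 luminal markers 8 had a positive genotype difference and 3 a negative one. The summed signal of 11 neutrophil markers was 15243 and 16859 in controls and 10402 and 11032 in transgenic pools. S100a8, at 6377 and 7909 in controls and 2779 and 3336 in transgenic pools, made up much of that sum, while Ltf and Lcn2 of the same list were higher in transgenic pools without overlap, by 1.19 and 1.49. The list's mean log2 signal overlapped, at 8.93 and 8.67 in controls and 8.42 and 8.74 in transgenic pools. T cell markers summed to 7068 and 3638 in controls and 4421 and 2671 in transgenic pools, and NK cell markers to 2245 and 1984 and to 1583 and 2002, both overlapping. The T cell genes Cd3d, Cd3e and Cd3g lay between 15.2 and 235.5 over all pools. The part of these cells in the Ccl5 and Ccl22 values was not tested.

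The genes whose log2 signal followed each chemokine most closely over the 8 arrays, out of 13040 others, were named by Pearson correlation as a description. For Ccl17 they were Perp, at 0.97, Fbl and Selenon, both at 0.96. Those for Ccl22 were Cxcl3, which draws neutrophils, at 0.99, Gm2a at 0.98 and Tle3 at 0.97. Ccl5 was followed by 9130019O22Rik at 0.99, and by Usp37 and 2310022B05Rik at 0.96. For Ccl6 the closest were Fbxo25 at 0.99, Sqor at 0.99 and H3f3b at 0.98, and none of the other chemokines was among the 3 closest genes of any of the 7. Ccl9, Ccl11 and Ccl24 were followed most closely by Tsen15, Hnrnpr and Map3k3, at 0.97, 0.97 and 0.96. The 8 points share 4 groups of 2 pools.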

How the data were processed

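Sorted mammary cells from pools of 3 mice were measured on 8 Affymetrix arrays. The authors deposited a linear intensity for each probe set, and the submitters' processing notes name MAS5 as the tool, without a version. Every array had a trimmed mean of 500 (2% left out at each end). Signals of 34945 probe sets with 1 gene symbol (of 45101; 932 carried several, 9160 none and 64 were controls) were put on a log2 scale after adding 30.8, the 25th percentile of every deposited signal. Names came from the platform annotation, and 34741 of them matched a RefSeq gene. Per gene, the probe set with the highest mean signal was used if at least 2 arrays had it above the median of the array.

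limma 3.58.1 in R 4.3.3 fitted 4 group means to all 8 arrays (4 residual degrees of freedom, a median prior of 6.21, trended prior), with two-sided p-values adjusted by Benjamini-Hochberg over 13041 genes and a threshold of 0.05. Figures were drawn with matplotlib 3.10.9. The members and gene lists were chosen with earlier results of these data known. All members, the receptors reported here, atypical receptors and Dpp4 were named (1 listed gene is not reported here), up to 4 genes of other lists with the smallest p in the contrast described, and the 3 genes most like each member. Stat6, Il13, Tnf, Zbtb46, Alox15, Adgre4, Il5ra, Col3a1, Krt8, S100a8, the Cd3, granule and macrophage genes were named for their roles and F5 as the only call, all after their values were seen. In 10 simulations of the 48 hours comparison over 13041 genes, the fit found 9% of changes that were 2-fold, 47.6% at 4-fold, 66% at 8-fold and 89% at 16-fold, with a mean of 4.3 false calls.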

Additional observations from a re-analysis of the deposited data

Results flagged for a closer look

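Among the receptors and signalling genes, 5 had both pools of a group on one side of the compared group in 1 setting and on the opposite side in the other. In each case the difference between the genotype effects at 4 weeks and 48 hours was tested in limma and did not pass, with adjusted p-values of 0.988 to 0.990. Ccr3 was lower in both transgenic pools at 48 hours and higher in both at 4 weeks, with a difference between the effects of 1.47 (SE 0.91). At 4 weeks its closest transgenic and control signals were 19.6 and 19.3, and each signal was below the median of its array. Dpp4 changed sides in the same way, by 0.76 (SE 0.47). Its closest transgenic and control signals were 457.3 and 458.9 at 48 hours and 489.6 and 482.3 at 4 weeks. The kinase gene Jak3, which serves interleukin 4 receptors, gave 223 and 214 in controls and 110.4 and 81.9 in transgenic pools at 48 hours and 125 and 132 in controls and 192 and 141 in transgenic pools at 4 weeks, a difference between the effects of 1.28 (SE 0.57). For Ifnb1, at 101 and 138 in controls and 161 and 208 in transgenic pools at 4 weeks, it was 1.59 (SE 0.57). Ackr4 was lower at 4 weeks than at 48 hours in control pools and higher in transgenic pools, with a difference of 0.27 (SE 0.42). Its closest control signals were 294.4 at 48 hours and 292.8 at 4 weeks. Jak3 and Ifnb1 changed sides over time in the same way. Opposite genotype sides without overlap occurred in 717 of 13041 genes (5.5%), in 4 of the 52 genes looked at (7.69%) and in 0 of the 7 chemokines. Opposite time sides occurred in 704 of 13041 genes (5.4%) and in 3 of the 52 (5.77%).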

How the results depend on the processing

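Of 728 alternative values of the 42 chemokine differences, 678 kept their direction and 50 reversed, and 0 passed the threshold. The lowest limma adjusted p of any chemokine was 0.0647. Of the 42 differences, 15 never reversed, among them Ccl17 in both genotype comparisons, over both times and in transgenic pools. Many settings could not move a difference. Other filters, separate probe sets, no trend, the pool block and fits of 1 time keep the same group differences. Leaving out a pool outside the compared groups also cannot move a difference. The 678 and the 15 therefore do not measure how stable the directions are. Counts of genes that passed were 2 instead of 0 at 4 weeks and 4 instead of 1 for time in control pools with the pool number as a replicate block. Between pools of the same number, the 6 correlations of their deviations from the group means ran from -0.0853 to 0.133. Whether such pools were prepared together cannot be told from these values. For time in control pools the count was 7 with the actin ratio as a covariate, 0 with the filter at the 75th percentile and 0 without the trend. With only the 4 arrays of 1 time it was 1 at 48 hours and 1 at 4 weeks. Without each pool in turn the counts ran from 0 to 1 at 48 hours, 0 to 1 at 4 weeks, 0 to 1 for the difference between the times, 0 to 3 over both times, 0 to 7 for time in control and 0 to 1 for time in transgenic pools. A lone pool left in a group is assumed to vary like the others. The causes were not tested.

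Reversals came with quantile normalization for Ccl9 at 48 hours (0.079) and Ccl11 over time in control pools (0.044). With the actin ratio as a covariate they came at 4 weeks for Ccl9 (-0.22) and Ccl24 (-0.21), for the difference between the times of Ccl9 (-0.087), and over both times for Ccl5 (0.42), Ccl6 (-0.13) and Ccl9 (-0.18). Leaving out pools gave the following ranges where a value reversed. At 48 hours they were -0.13 to 0.091 for Ccl9 and -0.22 to 0.60 for Ccl11. At 4 weeks they were -1.20 to 1.33 for Ccl5, -0.23 to 0.30 for Ccl9, -0.31 to 1.65 for Ccl22 and -0.50 to 0.57 for Ccl24. For the difference between the times they were -0.31 to 2.22 for Ccl5, -0.21 to 0.32 for Ccl9, -0.49 to 0.33 for Ccl11 and -0.022 to 1.04 for Ccl24. Over both times they were -1.04 to 0.22 for Ccl5, -0.065 to 0.16 for Ccl6, -0.12 to 0.14 for Ccl9, -0.059 to 0.35 for Ccl11, -0.35 to 0.63 for Ccl22 and -0.49 to 0.045 for Ccl24. For time in control pools they were -2.17 to 0.36 for Ccl5, -0.22 to 0.31 for Ccl9, -0.44 to 0.38 for Ccl11, -1.72 to 0.72 for Ccl17, -1.62 to 0.34 for Ccl22 and -0.85 to 0.035 for Ccl24. For time in transgenic pools they were -0.57 to 0.66 for Ccl5, -0.24 to 0.093 for Ccl6, -0.0084 to 0.21 for Ccl9, -0.32 to 0.11 for Ccl11 and -0.43 to 0.64 for Ccl24.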
